A study of Mus musculus with 11 samples.

Results

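Terminal end buds (TEBs) are the bulbous tips that drive the mammary ductal tree through the fat pad at puberty, and the subtending ducts are the tubes behind them. Accessible chromatin was compared between TEBs and ducts for basal and luminal cells together, to describe what the end bud state had in common in both lineages. A peak was taken as shared when the structure term of an additive model (lineage plus structure) passed a false discovery rate (FDR) of 0.05 in the quasi-likelihood test of edgeR and when the TEB minus duct difference of mean log2 read counts scaled to library size (CPM) had the same sign in basal and luminal cells. Of 153396 peaks with counts, 126832 had enough reads to be tested. Shared peaks numbered 2678 that were more accessible in TEBs (2.11% of those tested) and 2359 that were more accessible in ducts (1.86%). The structure term alone passed in 5089 peaks (4.01%), and 52 of these were left out because the lineages differed in sign. Members just inside the threshold (nearest Kif18a, Csmd3 and Rnf130, log2 fold changes of -0.56, 1.78 and -0.77) and same-sign peaks just outside it (nearest Magi3, Cenpw and Gm5415, -1.09, 1.18 and 1.85) lay on either side of an edgeR adjusted p of 0.05.

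The assay was ATAC-seq, in which a transposase cuts open chromatin and read counts in a peak measure its accessibility. All 11 libraries came from micro-dissected mammary glands of 5-week-old C57BL/6 females carrying an E-cadherin-GFP knock-in reporter, and the design text describes 3 pools of mice. Lineage-negative CD29+ CD24+ cells with high GFP were sorted as luminal and those with low GFP as basal. The groups were basal TEB (n = 3), luminal TEB (n = 3), luminal duct (n = 3) and basal duct (n = 2, replicates 1 and 3), and the second basal duct sample was not analysed here because it was discarded for low cell number. GFP served in finding the structures and in sorting the lineages, so a group is defined in part by its reporter level. In sorted bulk cells, a difference in the share of a cell subtype and a difference in accessibility per cell cannot be told apart.

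Depth moved with structure. Counts in peaks ranged from 1821942 to 2489582 in basal TEB and were 6816197 and 9986384 in basal duct. They ranged from 2960093 to 3738324 in luminal TEB and from 4650216 to 5561051 in luminal duct. Reads in peaks within 500 bp of a protein-coding transcription start site (TSS) made up 31.1% to 35.7% in basal TEB, 40.0% to 42.7% in basal duct, 32.7% to 34.6% in luminal TEB and 35.6% to 37.4% in luminal duct. Reads in peaks with over 50% of bases soft-masked as repeats made up 7.03% to 16.2% in basal TEB, 2.40% to 2.45% in basal duct, 5.58% to 7.21% in luminal TEB and 4.46% to 5.96% in luminal duct. What these 3 properties contributed to the shared peaks was not tested beyond the alternative fits given later. Those were other scalings, thinning to equal depth and a fit without soft-masked peaks. TEB-higher and duct-higher counts were 1515 and 473 after thinning and 1439 and 1409 without soft-masked peaks, against 2678 and 2359. Lineage labels matched the basal, pan-luminal and mature luminal marker lists but not the luminal progenitor list. More accessible in basal cells were 20 of 25 promoters of the basal identity list, with 1 the other way (FDR 0.05, lineage term). More accessible in luminal cells were 11 of 22 pan-luminal and 10 of 18 mature luminal promoters, with 2 and 3 the other way. Of 14 luminal progenitor promoters, 4 were higher in luminal and 6 in basal cells. Over all 14578 promoters, 2000 were higher in luminal and 4178 in basal cells. The summed promoter accessibility of 8 fibroblast markers was 92.3 to 124 CPM in basal TEB and 180 to 188 in basal duct, against 33.0 to 34.5 in luminal TEB and 29.0 to 33.8 in luminal duct, and its part in the results was not tested.

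Most regulatory DNA lies either at promoters, where transcription starts, or at distal elements such as enhancers, which are bound by sequence-specific factors and act over long distances. In the pubertal gland, the TEB contains proliferating cells that respond to estrogen, growth hormone and IGF signals, while the trailing duct holds more quiescent, polarized luminal cells inside a contractile basal layer. AP-1 factors (FOS and JUN dimers) and their immediate-early gene family respond within minutes to growth factors, stress and handling of cells, and many are controlled by enhancers close to the gene.

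The following windows are the central 200 bp of distal shared peaks, read from the plus strand of GRCm38 (mm10). They are shown because they had the largest changes that both lineages shared among eligible distal peaks outside exons. Eligible peaks had at most 50% of bases soft-masked as repeats, libraries that did not overlap and a mean level above the median tested peak. Soft-masked bases numbered 22 of 200 in the Gjc3 window, 91 in Tmem167 and 0 in Adamts9. They numbered 0 in the Kcnq5 intron window, 48 in Fos and 95 in Foxo1. Lower case does not mark these bases. Capitals mark matches on either strand to AP-1 (TGANTCA), TEAD (GGAATG), RUNX (TGTGGT) and SOX (ACAATG) sequences, which may overlap. The first group of 3 was more accessible in TEBs, and each window held a SOX match.
TEB, 3.3 kb upstream of Gjc3, chr5:137966571-137966770: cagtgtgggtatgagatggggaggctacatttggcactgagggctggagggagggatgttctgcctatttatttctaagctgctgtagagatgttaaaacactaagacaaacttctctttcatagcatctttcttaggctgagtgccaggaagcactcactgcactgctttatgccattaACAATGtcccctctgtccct
TEB, 169 kb from Tmem167, chr13:90258431-90258630: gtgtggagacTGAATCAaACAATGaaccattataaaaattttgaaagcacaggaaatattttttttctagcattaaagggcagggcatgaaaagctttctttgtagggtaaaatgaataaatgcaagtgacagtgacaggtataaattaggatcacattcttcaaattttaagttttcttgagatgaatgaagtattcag
TEB, 118362 bp upstream of Adamts9, chr6:93062045-93062244: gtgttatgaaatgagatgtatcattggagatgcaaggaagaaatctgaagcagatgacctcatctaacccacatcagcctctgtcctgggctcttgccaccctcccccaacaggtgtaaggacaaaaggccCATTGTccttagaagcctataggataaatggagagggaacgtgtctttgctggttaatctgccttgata
The second group of 3 was more accessible in ducts, and each window held a RUNX match. The Kcnq5 intron window also held a SOX and a TEAD match.
Duct, intron of Kcnq5 with Khdc1b the nearest TSS, chr1:21614029-21614228: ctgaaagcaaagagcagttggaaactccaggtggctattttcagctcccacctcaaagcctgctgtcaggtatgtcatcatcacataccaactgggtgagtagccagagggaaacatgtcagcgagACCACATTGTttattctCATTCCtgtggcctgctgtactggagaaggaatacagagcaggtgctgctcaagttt
Duct, 4.7 kb downstream of the Fos TSS, chr12:85478761-85478960: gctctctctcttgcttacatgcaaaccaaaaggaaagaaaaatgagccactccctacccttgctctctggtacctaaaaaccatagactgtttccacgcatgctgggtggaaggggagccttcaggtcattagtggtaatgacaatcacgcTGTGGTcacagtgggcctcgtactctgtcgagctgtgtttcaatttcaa
Duct, 287 kb from Foxo1, chr3:52555251-52555450: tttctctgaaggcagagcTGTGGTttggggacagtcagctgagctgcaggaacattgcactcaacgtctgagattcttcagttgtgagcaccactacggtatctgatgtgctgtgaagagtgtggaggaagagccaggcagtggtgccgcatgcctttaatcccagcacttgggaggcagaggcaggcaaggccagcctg

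Shared peaks shifted further in basal than in luminal cells. The median TEB minus duct difference of TEB-higher peaks was 2.21 (log2) in basal and 0.83 in luminal cells, and that of duct-higher peaks was -1.16 in basal and -0.43 in luminal cells, against medians over all tested peaks of -0.02 and 0.01. These 4 medians follow from the selection and are a description. The median TEB-higher peak had 8.79, 4.52 and 5.62 CPM in the basal TEB libraries and 0.789 and 0.938 in the basal duct libraries. In luminal cells it had 2.85, 2.22 and 3.10 CPM in TEB and 1.09, 0.955 and 1.33 in duct libraries. The median duct-higher peak had 13.7, 17.3 and 14.5 CPM in basal TEB, 37.3 and 32.8 in basal duct, 20.2, 23.3 and 21.4 in luminal TEB and 30.1, 29.8 and 28.8 in luminal duct. Basal TEB replicate 1 was the highest library for the first set and the lowest for the second.

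**Figure D1:**
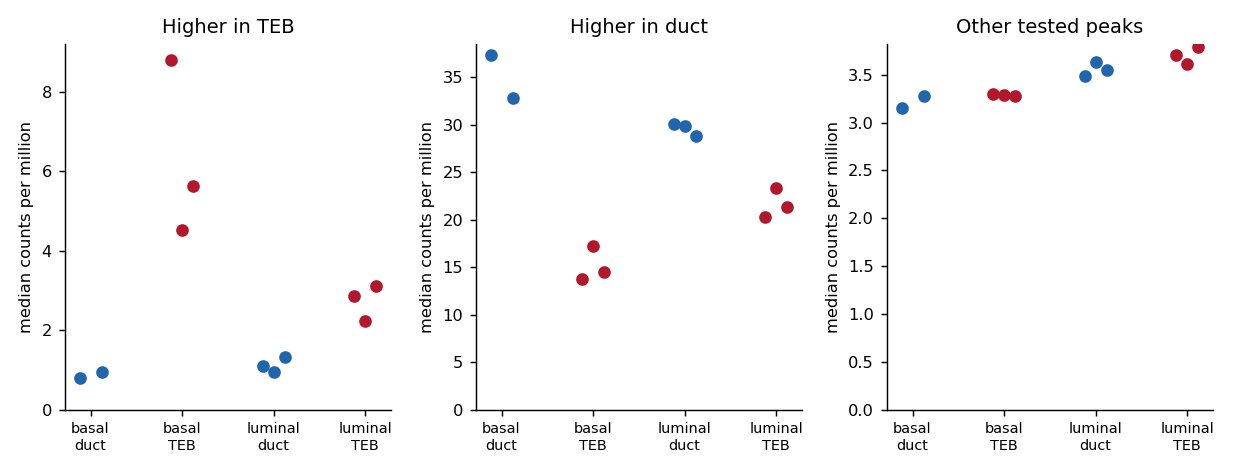
Median accessibility (CPM, linear axes from 0) of TEB-higher shared peaks, duct-higher shared peaks and the other tested peaks, with 1 point per library and TEB libraries in red and duct libraries in blue. TEB and duct libraries separate in both lineages for the shared sets because these were chosen for that, and the basal gap is wider, with 4.52 to 8.79 against 0.789 and 0.938 for the first set.

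TEB libraries and duct libraries did not overlap in either lineage at 1320 TEB-higher (49.3%) and 1605 duct-higher members (68.0%). Over all tested peaks such non-overlap was seen at 2.51% in the direction of TEB and 3.23% in the direction of duct. Basal differences exceeded luminal ones in 94.4% of TEB-higher and 96.7% of duct-higher members, against 73.6% of all tested peaks. The interaction of lineage and structure passed an FDR of 0.05 in 741 TEB-higher members (27.7%) and 714 duct-higher members (30.3%), against 14.0% of all tested peaks. Basal cells had the larger change in all of these 741 and in 713 of the 714. Members were selected on the structure term of these same libraries. The excesses over all tested peaks in this paragraph therefore follow in part from the selection and are a description.

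Members also differed in level between the lineages. The lineage term called 744 TEB-higher members (27.8%) higher in basal cells and 214 (7.99%) higher in luminal cells. It called 589 duct-higher members higher in basal and 682 (28.9%) higher in luminal cells. Over all tested peaks the shares were 30.1% and 33.9%. The pooled shares joined unlike classes. Outside the TSS and soft-masked classes, 655 of 1205 TEB-higher members (54.4%) were higher in basal and 195 (16.2%) in luminal cells. All tested peaks over 2.5 kb from a TSS, soft-masked ones included, had shares of 30.0% and 37.3%. Of 1458 soft-masked TEB-higher members, 85 (5.83%) were higher in basal and 17 (1.17%) in luminal cells. All tested soft-masked peaks had shares of 6.64% and 18.7%, so the basal share was near that of the class. Duct-higher TSS members had shares of 14.1% and 32.2%, against 30.4% and 14.4% of all tested TSS peaks.

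TEB-higher and duct-higher members lay in different parts of the genome. TSS peaks made up 31 of the 2678 TEB-higher members (1.16%, 95% Clopper-Pearson interval 0.788% to 1.64%) and 1477 of the 2359 duct-higher members (62.6%, 60.6% to 64.6%), against 12.6% of all tested peaks. Put the other way, 0.194% of the 16007 tested TSS peaks were TEB-higher and 9.23% duct-higher. Peaks over 10 kb from a TSS made up 86.1% of TEB-higher and 27.9% of duct-higher members, against 66.7% of all tested peaks. Intervals cover counting error only, and peaks are not independent replicates.

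Repeat content differed in the same way. Over 50% of bases were soft-masked in 1458 TEB-higher members (54.4%, 52.5% to 56.3%) and in 5 duct-higher members (0.212%, 0.0689% to 0.494%), against 7.80% of all tested peaks. The whole class moved in these libraries: over all 9888 tested soft-masked peaks the median difference was 1.90 (log2) in basal and 0.24 in luminal cells, and over all tested TSS peaks it was -0.58 and -0.14. Outside the TSS and soft-masked classes 1205 TEB-higher members remained, with median differences of 1.77 in basal and 0.79 in luminal cells. Duct-higher members were wide (median 1132 bp) and GC-rich (median 58.3% GC), whereas TEB-higher members had a median of 306 bp and 47.9% GC, against 412 bp and 49.4% over all tested peaks.

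**Figure D2:**
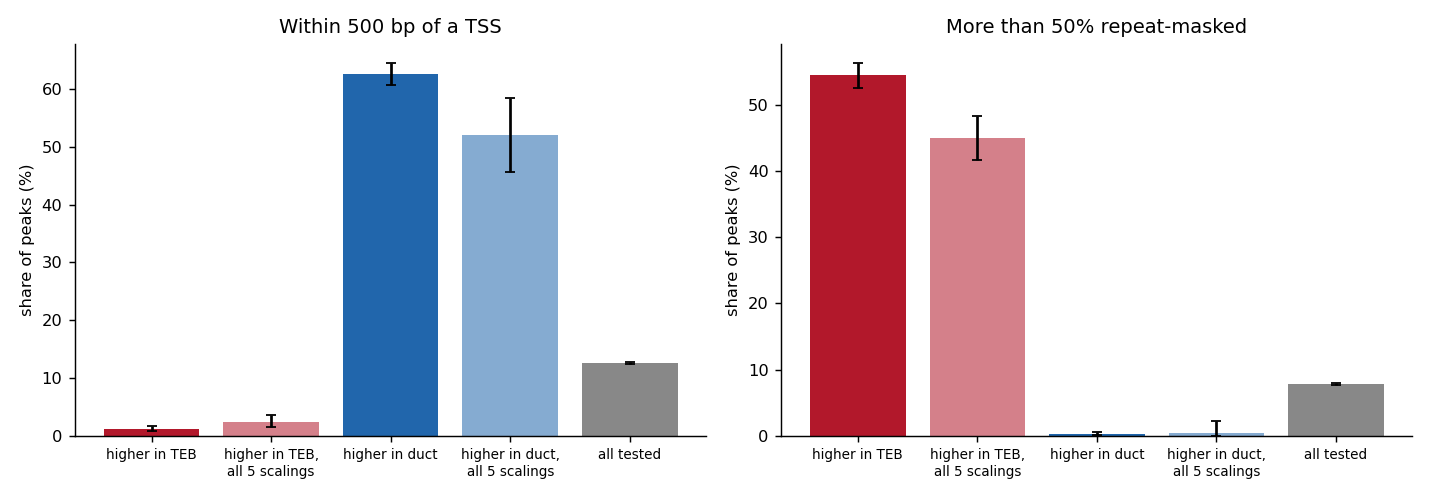
Share of peaks (%) within 500 bp of a TSS (left) and with over 50% of bases repeat-masked (right), for shared peaks, for the subsets called under all 5 library scalings and for all tested peaks. Error bars are 95% Clopper-Pearson intervals, and TSS peaks make up 62.6% of duct-higher peaks and 1.16% of TEB-higher peaks.

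The naming rule for promoters and distal peaks admitted only members whose TEB and duct libraries did not overlap in either lineage, so that separation is no finding at them. Among distal elements outside the soft-masked class, the clearest TEB-higher peaks combined strong basal signal with a low but separate luminal signal. An intronic peak of Disc1, which encodes a scaffold protein, had 20.9, 17.7 and 27.6 CPM in basal TEB and 1.69 and 2.66 in basal duct, with 3.14, 3.61 and 4.82 in luminal TEB and 1.31, 0.955 and 1.33 in luminal duct. Its log2 fold change was 2.68 ± 0.34 (SE, edgeR adjusted p = 0.00107). A peak 392 kb from Cdh2, which encodes N-cadherin, had 23.6, 30.9 and 24.8 CPM in basal TEB, 4.06 and 2.97 in basal duct, 3.71, 2.22 and 5.17 in luminal TEB and 0.436, 1.34 and 1.33 in luminal duct (log2 fold change 2.51 ± 0.32, edgeR adjusted p = 0.00107). Basal TEB libraries had the highest values at both peaks.

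The window printed for Adamts9, a secreted metalloprotease gene, lies in a peak with 34.6, 35.0 and 32.8 CPM in basal TEB against 9.47 and 11.6 in basal duct, and 3.42, 1.94 and 3.10 CPM in luminal TEB against 0.871, 0.573 and 0.443 in luminal duct. Its log2 fold change was 1.80 ± 0.26 (edgeR adjusted p = 0.00267), with differences of 1.66 in basal and 1.56 in luminal cells. A peak 34.7 kb from the nearest TSS of Aim2, a cytosolic DNA sensor, was the luminal counterpart, with 14.5, 15.3 and 16.9 CPM in luminal TEB, 3.70, 6.11 and 5.76 in luminal duct, 2.20, 1.65 and 2.34 in basal TEB and 0.113 and 0.313 in basal duct (log2 fold change 1.81 ± 0.31, edgeR adjusted p = 0.00605). The lineage with the higher level differed between these peaks. A peak 174 kb upstream of Fggy was accessible in both lineages, with 19.8, 23.0 and 21.1 CPM in basal TEB, 5.64 and 11.3 in basal duct, 10.6, 10.3 and 5.86 in luminal TEB and 1.31, 3.44 and 1.33 in luminal duct (log2 fold change 1.68 ± 0.28, edgeR adjusted p = 0.00587).

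The remaining named distal TEB-higher peaks lay near Gjc3, a gap junction gene, with a log2 fold change of 2.02 ± 0.35, near Tmem167 with 1.80 ± 0.34, and 293 kb from Gdf6, a BMP family ligand gene, with 1.64 ± 0.33 (edgeR adjusted p = 0.00613, 0.00913 and 0.0124). These 3 did not pass without basal duct replicate 1, where their edgeR adjusted p was 0.0544, 0.0614 and 0.0614 and their log2 fold changes were 1.84, 1.73 and 1.51. The Tmem167 peak also did not pass without basal duct replicate 3 (edgeR adjusted p = 0.0575, log2 fold change 1.80). By the rule, 279 TEB-higher distal peaks were eligible for naming.

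TSS peaks that were more accessible in TEBs were few, and only 1 passed the rule for naming. Of these 31 peaks, 16 were soft-masked, against 0.406% of all tested TSS peaks. The promoter peak of Nrxn3 (chr12:89811859-89812786), which encodes the cell adhesion molecule neurexin 3, had 31.3, 36.6 and 29.0 CPM in basal TEB, 9.13 and 9.38 in basal duct, 51.3, 51.3 and 49.3 in luminal TEB and 35.9, 42.0 and 28.1 in luminal duct. Luminal ducts were about as high as basal TEBs. The log2 fold change was 1.02 ± 0.20 (edgeR adjusted p = 0.0109), with differences of 1.75 in basal and 0.53 in luminal cells. Without basal duct replicate 1 or 3, the edgeR adjusted p was 0.0714 and 0.0844, with log2 fold changes of 0.85 and 0.84. It also did not pass the exact tests in both lineages (adjusted p = 0.0921).

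Duct-higher promoters were numerous, with 1016 eligible for naming, and 8 were named by the rule. Cyp2r1, which encodes a vitamin D 25-hydroxylase, had the largest change shared by both lineages, with 19.2, 21.8 and 9.84 CPM in basal TEB against 50.2 and 41.3 in basal duct and 9.12, 8.05 and 5.17 in luminal TEB against 19.8, 20.1 and 23.3 in luminal duct. The difference was -1.47 (log2) in each lineage, and the log2 fold change was -1.45 ± 0.20 (edgeR adjusted p = 0.00164). Ducts were 2.74-fold higher.

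Thrb, the thyroid hormone receptor beta gene, had 16.5, 11.9 and 28.1 CPM in basal TEB, 46.4 and 43.8 in basal duct, 18, 25.3 and 25.1 in luminal TEB and 46.6, 44.3 and 36.3 in luminal duct (log2 fold change -1.06 ± 0.18, edgeR adjusted p = 0.00605). Fat4, an atypical cadherin gene linked to planar polarity, had 14.8, 19.3 and 9.84 CPM in basal TEB, 50.8 and 41.1 in basal duct, 11.7, 14.2 and 10.7 in luminal TEB and 17.0, 27.3 and 21.5 in luminal duct (log2 fold change -1.21 ± 0.20, edgeR adjusted p = 0.00580). For Fat4 the luminal duct libraries were lower than the basal duct libraries, while the Thrb duct libraries were alike in both lineages. The other 5 were Zpbp (log2 fold change -1.21 ± 0.16), Asap1, an ArfGAP gene (-1.20 ± 0.19), Ccser1 (-1.15 ± 0.18), Zscan18 (-0.99 ± 0.19) and Fam110b (-0.99 ± 0.17), with edgeR adjusted p between 0.00126 and 0.0109. Zscan18 did not pass without basal duct replicate 1 (edgeR adjusted p = 0.0605, log2 fold change -0.94). Over all tested TSS peaks the median log2 fold change was -0.33, so these 8 promoters lay below the class median, and all 8 also passed when libraries were scaled on TSS peaks alone, with log2 fold changes between -1.11 and -0.66.

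**Figure D3:**
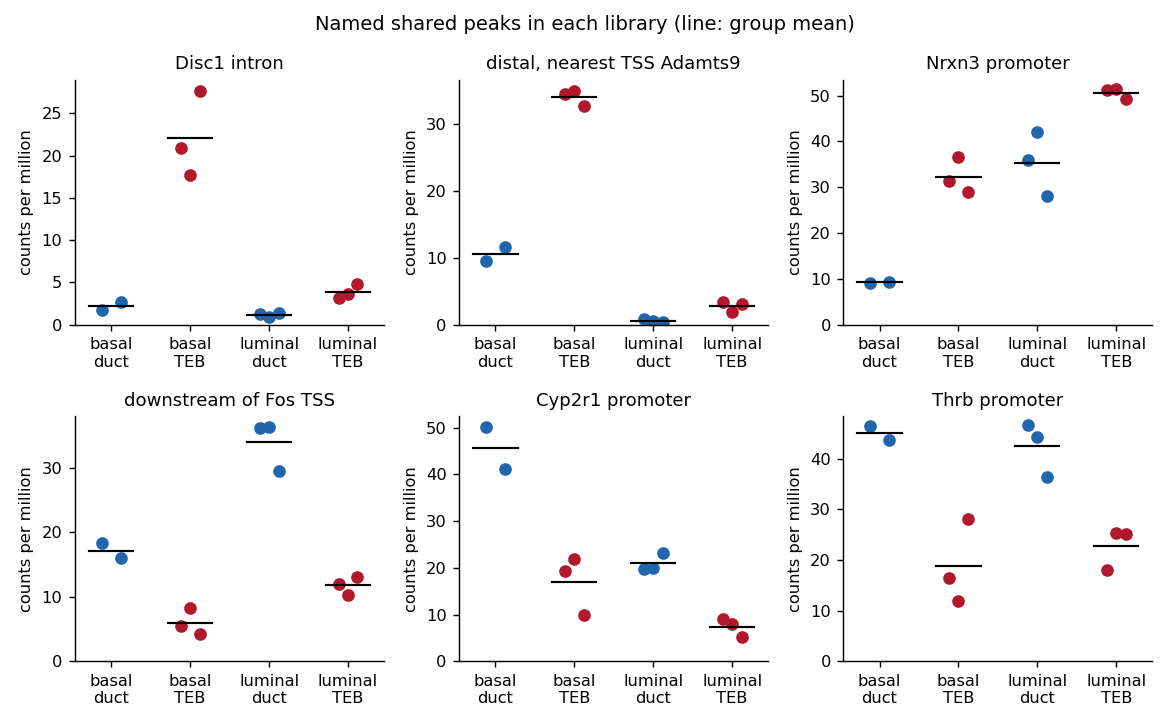
Accessibility (CPM, linear axes from 0) of 6 shared peaks, with 1 point per library, TEB libraries in red, duct libraries in blue and a line at each group mean. As the naming rule required, the TEB and duct libraries do not overlap within a lineage in any panel, with TEB above in the upper row and duct above in the lower row.

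Several duct-higher peaks could share the same nearest gene. The 6 genes that follow had the most duct-higher members, from counting members nearest to each gene's TSS within 100 kb, the background being 2152 duct-higher and 1678 TEB-higher members among 103409 peaks so assigned. Klf6, a zinc-finger transcription factor gene of the immediate-early class, had 7 duct-higher peaks of 27, Fos had 6 of 30, and Sik1 (a salt-inducible kinase), Socs3 (a feedback inhibitor of cytokine signalling), Errfi1 (a feedback inhibitor of ErbB receptors) and Bcl3 (an IkB family protein) had 5 each of 46, 19, 24 and 9. None of these 6 genes had a TEB-higher peak. Negative log2 fold changes were found for 21, 25, 29, 19, 19 and 8 of their peaks respectively.

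A pair of peaks downstream of Fos had the lowest adjusted p of these. The peak 4.7 kb from the TSS, the source of the printed Fos window, had 5.50, 8.23 and 4.22 CPM in basal TEB, 18.4 and 15.9 in basal duct, 12, 10.3 and 13.1 in luminal TEB and 36.2, 36.3 and 29.5 in luminal duct. The difference was -1.49 (log2) in basal as in luminal cells (log2 fold change -1.52 ± 0.19, edgeR adjusted p = 0.00107). The neighbour at 5.4 kb had 4.95, 4.11 and 5.62 CPM in basal TEB, 14.5 and 12.2 in basal duct, 5.99, 5.55 and 7.92 in luminal TEB and 19.6, 19.3 and 12.4 in luminal duct (log2 fold change -1.43 ± 0.23, edgeR adjusted p = 0.00460). The other 4 lay 1.19 kb and 11.2 kb upstream and 3.42 and 3.92 kb downstream, with log2 fold changes of -0.93, -1.16, -0.89 and -0.88. The Fos promoter peak itself was not called.

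At Errfi1 the called peaks lay up to 77.6 kb upstream and over the TSS, with log2 fold changes from -1.68 to -0.60. A pair of them differed by -2.54 and -2.55 in basal but -0.07 and -0.14 in luminal cells. At Socs3 all 19 peaks had a negative log2 fold change, and the called ones, 5.12 to 37.9 kb downstream, ranged from -1.37 to -0.64. Luminal differences at the 5 Socs3 members were small, between -0.51 and -0.16, and luminal libraries of TEB and duct overlapped at all 5. Klf6 members ranged from -1.15 to -0.65, and Sik1 members from -1.10 to -0.76, a pair of them with luminal differences of only -0.21 and -0.22. Of the called peaks, 3 at Fos, 1 at Socs3 and 1 at Errfi1 were called under all 5 scalings, and none at Klf6, Sik1 or Bcl3.

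**Figure D4:**
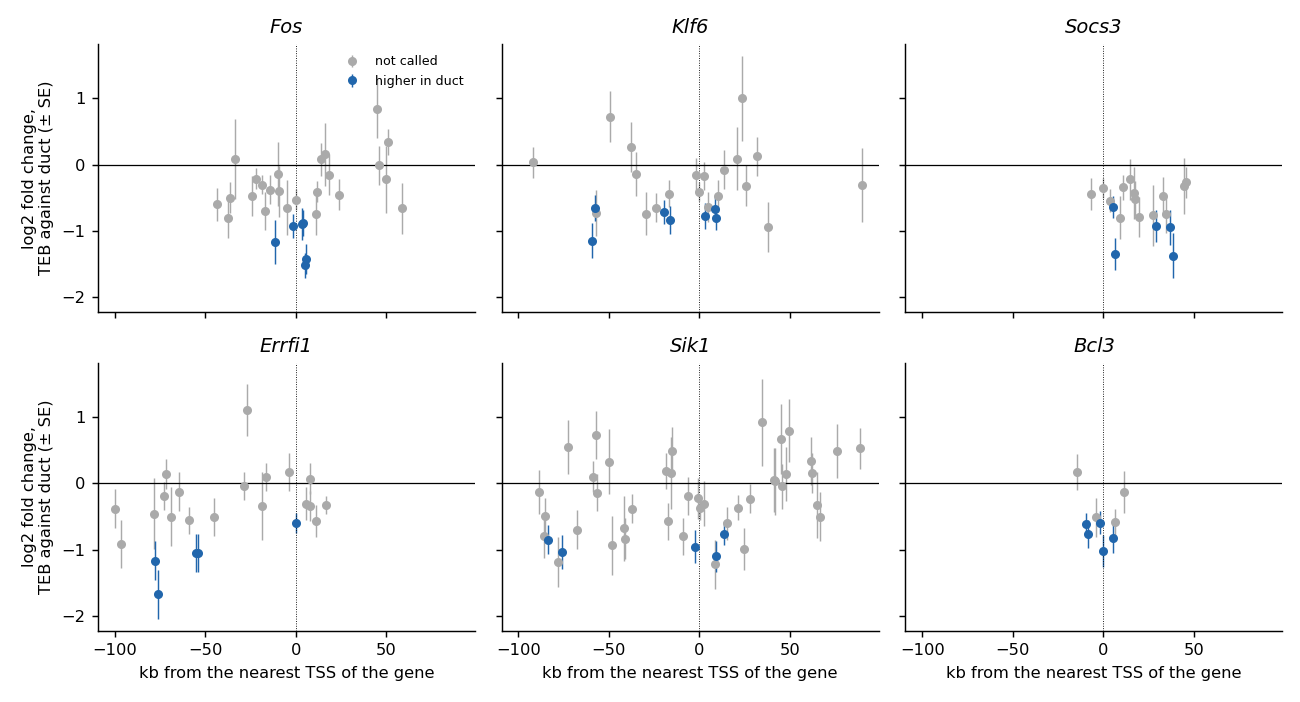
Log2 fold change (TEB against duct, ± SE) of every tested peak whose nearest TSS belongs to Fos, Klf6, Socs3, Errfi1, Sik1 or Bcl3, against the distance of the peak's centre from that TSS in kb (positive is downstream). Blue points are the duct-higher shared peaks (6, 7, 5, 5, 5 and 5) and grey points were not called, with no TEB-higher peak in any panel.

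The list of 21 AP-1 and immediate-early genes, compiled with earlier results of these data known, overlaps those loci, since it holds Fos and Klf6. Of 264 tested non-TSS peaks nearest to these genes, 22 were duct-higher (8.33%) and 1 TEB-higher, against 675 duct-higher (0.772%) and 1647 TEB-higher of 87402 such peaks over all genes. Their median log2 fold change was -0.22 against 0.06 over all genes. Members lay at Klf6 (7), Fos (6), Fosb (4), Zfp36 (2), Btg2 (2) and Dusp1 (1), and at none of Jun, Egr1 or Atf3. Without Fos and Klf6, 9 of 209 peaks were duct-higher (4.31%). With libraries scaled on TSS peaks, 6 of the 264 were duct-higher against 102 over all genes, and with GC-bin scaling 21 against 641. Fosb, another AP-1 subunit gene, had members centred 5.20 and 7.51 kb downstream with log2 fold changes of -1.43 ± 0.30 and -1.23 ± 0.19 (edgeR adjusted p = 0.0149 and 0.00460). Both held under all 5 scalings. At promoters, 1 of 21 was duct-higher, against 10.8% of all promoters (Junb, log2 fold change -0.63 ± 0.16, edgeR adjusted p = 0.0316) and a median of -0.37.

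The other named distal duct-higher peaks lay in an intron of Kcnq5 (nearest TSS Khdc1b, log2 fold change -1.87 ± 0.29), 287 kb from Foxo1 (-1.64 ± 0.29), in introns of Sorcs2 (-2.09 ± 0.42), Khdrbs3 (-1.55 ± 0.22) and Malrd1 (nearest TSS Plxdc2, -1.58 ± 0.27), and 2.86 kb downstream of the TSS of Gadd45g, a stress-inducible growth arrest gene (-1.67 ± 0.35). Their edgeR adjusted p lay between 0.00267 and 0.0149. Gadd45g had 0.550, 0.411 and 2.81 CPM in basal TEB, 2.82 and 3.59 in basal duct, 1.43, 3.61 and 3.44 in luminal TEB and 8.49, 9.75 and 11.7 in luminal duct, so the basal groups practically touched. The call at Gadd45g was lost without basal duct replicate 1 or 3 (edgeR adjusted p = 0.0513 and 0.0577, log2 fold changes -1.75 and -1.69) and that at Sorcs2 without basal duct replicate 1 (edgeR adjusted p = 0.0959, log2 fold change -1.98). Gadd45g also lost its call after thinning to equal depth (log2 fold change -1.11, edgeR adjusted p = 0.24), and both lost it in the exact tests within lineages (adjusted p = 0.174 and 0.331).

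Several TEB-higher peaks could also share the same nearest gene, and clustering over all members was not measured. The genes with most TEB-higher members were Gm21119 (18 of 36 nearest peaks, with 1 duct-higher), Sfi1 (14 of 27), Gm11168 (7 of 7), Gm15319 (7 of 28), Gas8 (6 of 28) and Gm10721 (5 of 5). Soft-masked peaks made up 12, 3, 7, 5, 6 and 5 of those members. Gm11168 and Gm10721 lie side by side on chromosome 9 between 3001987 and 3014381, and their 12 peaks had log2 fold changes between 1.14 and 1.29. Gm21119 and Gm15319 lie together on chromosome 8. Reads from near-identical copies may be shared between repeat-rich loci, so values at such loci are uncertain as measures of a single site. All 12 members at Gm11168 and Gm10721 were called under all 5 scalings.

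Across 36 gene lists, promoter peaks that were TEB-higher were found in 1 (Htr5b, among the end bud genes), and 22 of 14578 promoter peaks were TEB-higher in all. Duct-higher promoters were 1568 of 14578 (10.8%) with a median log2 fold change of -0.34. Genes of pubertal duct growth had 8 of 29 promoters duct-higher (27.6%) and a median of -0.46. These included Igf1r, the IGF1 receptor (-0.98 ± 0.18, edgeR adjusted p = 0.00869), Bmi1, a Polycomb gene (-0.72 ± 0.15, edgeR adjusted p = 0.0155) and Pgr, the progesterone receptor (-0.69 ± 0.16, edgeR adjusted p = 0.0195). With scaling on TSS peaks 1 of the 29 was called, against 211 of 14578 promoters.

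Signalling lists had 7.69% (hedgehog, 1 of 13) to 19.0% (Notch) of promoters duct-higher, against 10.8% of all promoters. ErbB, FGF and IGF signalling had 5 of 33, including Fgf2 (-1.18 ± 0.23, edgeR adjusted p = 0.0109) and Spry1, an inhibitor of growth factor signalling (-0.93 ± 0.18, edgeR adjusted p = 0.0107), both of which held under all 5 scalings. TGF-beta and BMP genes had 5 of 31, including Inhba, the activin A subunit (-0.95 ± 0.17, edgeR adjusted p = 0.00837), which also held under all 5. Notch genes had 4 of 21, among them Jag1, Hey1 and Hey2 with log2 fold changes of -0.52, -0.58 and -0.57, and Wnt genes had 4 of 32, among them Fzd4, Fzd1 and Tcf7l1 with -0.63, -0.57 and -0.59. None of the Notch or Wnt promoters was called with scaling on TSS peaks.

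Lineage and growth lists had shares near or below that of all promoters. Cell cycle genes had 1 of 32 duct-higher (Mcm4, -0.50, at a promoter shared with Prkdc) and a median of -0.22, and cell cycle inhibitors 0 of 13. Contractile and smooth muscle genes had 2 of 25 (Synm, -0.67, and Mrtfb, -0.65), extracellular matrix genes 2 of 25 (Col6a1, -1.34, and Col1a2, -1.12) and basal identity genes 3 of 25 (Krt5, -1.46, Vim, -0.71, and Jag1). Pan-luminal genes had 0 of 22, luminal progenitor genes 0 of 14 and mature luminal genes 2 of 18. Housekeeping genes had 1 of 28 with a median of -0.33. Markers of fibroblasts, endothelium, immune cells, adipocytes and pericytes had no shared promoter among 8, 4, 2, 5 and 5 tested, whereas 1 of 3 differentiated keratinocyte promoters (Tgm1, -0.71, edgeR adjusted p = 0.0439) was duct-higher.

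Of 13 genes that the study names for TEB or duct cells, 1 had a shared promoter peak. The study named Nrg1, Sema3b, Meox1, Ccnd2, Postn and the contractile genes from single-cell RNA of basal cells, with staining for Myh11 and Mylk protein. That is another measure in 1 lineage, and a missing shared promoter call does not bear on it. Median promoter differences of the 7 duct genes were -0.56 in basal and 0.16 in luminal cells. Those of the 6 end bud genes were 0.70 and -0.04. Htr5b, Dmrta1, Postn and Lgr5 are discussed in the study for accessibility in these same libraries, so their values are not independent of that choice. Htr5b, a serotonin receptor gene, had 17.6, 25.5 and 27.6 CPM in basal TEB, 11.4 and 9.38 in basal duct, 7.13, 11.7 and 6.89 in luminal TEB and 6.32, 5.92 and 6.65 in luminal duct (log2 fold change 0.82 ± 0.23, edgeR adjusted p = 0.0441). Groups did not overlap, but the luminal margin was narrow. Its call was lost with no filter (edgeR adjusted p = 0.0592) and in the exact test within lineages (adjusted p = 0.594), and omission of 9 of the 11 libraries took the edgeR adjusted p to between 0.0522 and 0.253, the highest being without basal duct replicate 3. The end bud gene Dmrta1 was not called (log2 fold change 0.79 ± 0.30, edgeR adjusted p = 0.124), and the log2 fold changes of Nrg1, Sema3b, Meox1 and Ccnd2 were between -0.32 and 0.46 (edgeR adjusted p from 0.272 to 0.620). Among duct genes, Postn had -1.42 ± 0.51 and Lgr5 -0.70 ± 0.28 (edgeR adjusted p = 0.103 and 0.138), and the contractile genes Myh11, Myl9, Mylk and Acta2 had -0.31, -0.53, -0.55 and 0.28 (edgeR adjusted p from 0.202 to 0.611). Acta2 was called TEB-higher at 0.63 with factors from TSS peaks and at 0.63 after loess normalisation (edgeR adjusted p = 0.0129 and 0.0110). Under the model of group means Lgr5 (-0.72), Postn (-1.26) and Dmrta1 (0.79) passed (edgeR adjusted p = 0.00343, 0.0420 and 0.0165), and Postn also passed without luminal TEB replicate 1 (-1.97, edgeR adjusted p = 0.0451).

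Short sequence matches were counted in the central 300 bp of peaks over 2.5 kb from a TSS that were not soft-masked. SOX matches (ACAATG) were in 27.8% of 1158 TEB-higher windows and 16.1% of 793 duct-higher ones, against 18.5% of all such windows. AP-1 matches (TGANTCA) were in 19.2% of TEB-higher, 32.3% of duct-higher and 30.5% of all windows. TEAD matches (GGAATG) were in 17.5%, 31.7% and 22.8%, and RUNX matches (TGTGGT) in 17.5%, 30.1% and 24.4%. In members called under all 5 scalings (477 and 110 windows), SOX matches were in 26.8% and 20%, AP-1 in 14.3% and 38.2%, TEAD in 14.7% and 30.9% and RUNX in 18.9% and 34.5%. A match is a description of letters and not of a bound factor.

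At TSS peaks, the GC-box of SP and KLF factors (GGGCGG) was in 73.3% of 1477 duct-higher windows against 60.3% of all TSS windows, and ETS matches (CCGGAAG) were in 15.1% against 11.7%. AP-1 matches were in 2.71% against 6.27%, and CCAAT boxes (CCAAT) in 20.9% against 27.7%. In the 128 TSS windows that were duct-higher under all 5 scalings, GC-boxes were in 64.8%, ETS matches in 10.9%, AP-1 in 4.69% and CCAAT boxes in 14.1%, so the ETS share then lay below that of all TSS windows. Soft-masked TEB-higher windows held the NFY and HOX-PBX letters (TGATNNAT) about as often as the class, with 47.9% against 47.3% and 26.7% against 24.7%, and AP-1 matches in 2.74% against 15.2%. In the 409 soft-masked windows called under all 5 scalings these shares were 35.5%, 16.1% and 2.44%.

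How many peaks were shared depended on the scaling of the libraries and on the basal duct libraries. Counts of TEB-higher and duct-higher peaks were 2736 and 1612 with relative log expression factors, 5524 and 339 when factors came from TSS peaks, 1508 and 516 after loess normalisation and 1921 and 1336 after normalisation by GC bin. TSS peaks made up 59.9%, 30.0% and 32.5% of duct-higher members in the last 3 of these. Scaling on TSS peaks moved the median log2 fold change over all tested peaks from 0.01 to 0.32 and that of TSS peaks from -0.33 to 0.00. Without basal duct replicate 1 the counts were 55 and 48, and without basal duct replicate 3 they were 56 and 78, each leaving 1 basal duct library. Leaving out any of the other 9 libraries gave 1021 to 4031 and 736 to 3768, and 10 of the 11 libraries moved at least 1 of the counts by over 1.5 times, the exception being luminal duct replicate 1.

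**Figure D5:**
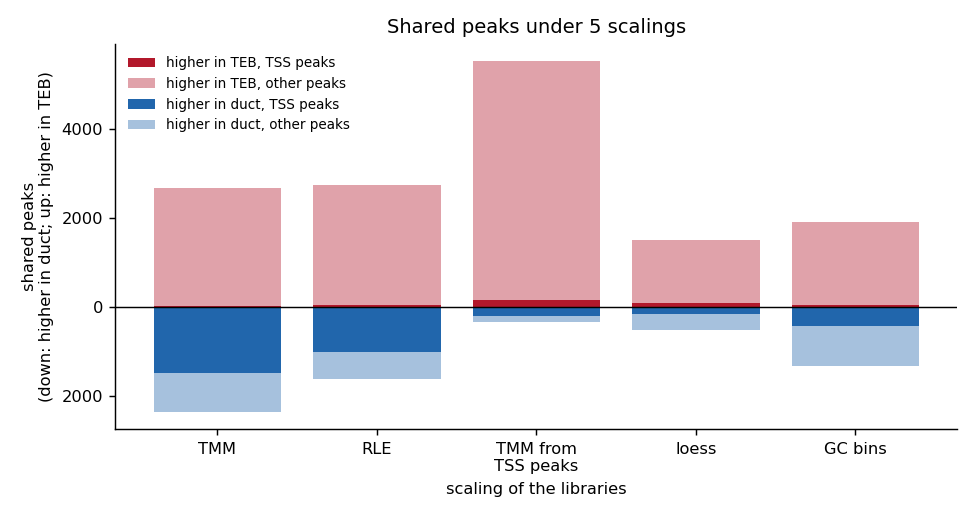
Number of shared peaks under 5 scalings of the libraries, with TEB-higher peaks above the zero line and duct-higher peaks below it, and TSS peaks in the darker shade. Scaling on TSS peaks gives 5524 and 339, the standard TMM scaling 2678 and 2359, and TSS peaks stay a minor share of TEB-higher peaks under all 5.

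Smaller sets held across scalings or across omitted libraries. Under all 5 scalings, 910 TEB-higher and 246 duct-higher peaks remained, of which 21 and 128 were TSS peaks and 409 and 1 soft-masked. Separate exact tests within each lineage called 115 TEB-higher and 187 duct-higher peaks in both, and 115 and 186 of these were members. Members called whichever library was left out numbered 40 and 44, and 38 and 44 of these also held under all 5 scalings. That last set included the peaks near Disc1, Cdh2, Adamts9, Aim2 and Fggy among TEB-higher peaks, and both Fos peaks and the promoters of Cyp2r1, Zpbp, Ccser1, Fam110b, Asap1, Thrb, Fat4 and Inhba among duct-higher ones. Of these, Disc1, Cdh2, Adamts9, Aim2 and Asap1 did not pass the exact tests in both lineages (adjusted p = 0.0509, 0.0607, 0.0577, 0.0509 and 0.0778), and Fam110b did not pass after thinning (log2 fold change -0.59 against -0.99, edgeR adjusted p = 0.0709). Outside the naming rule, and chosen after values were seen, it also held an intronic TEB-higher peak nearest to Mecom (2.96 ± 0.53), a duct-higher promoter of Zbtb16, a zinc-finger repressor gene (-1.29 ± 0.23), and a duct-higher peak 64456 bp from Gadd45a (-1.09 ± 0.19), with edgeR adjusted p of 0.00787, 0.00816 and 0.00787.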

How the data were processed

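Sorted basal and luminal cells from TEBs and ducts were profiled by ATAC-seq in 11 libraries. The authors trimmed adapters, aligned reads to mm10 with Bowtie2 (2.3.4.3 in the submitters' processing notes), removed duplicates, called peaks with MACS2 on pooled replicates of each population, merged them, removed blacklisted regions and deposited raw read counts for each peak and library. These deposited counts were used as they stood. Since peaks came from pooled replicates, the calls of single libraries cannot be compared.

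Counts were analysed with edgeR 4.0.16 in R 4.3.3 by quasi-likelihood F-tests with TMM factors, filterByExpr and Benjamini-Hochberg adjustment at an FDR of 0.05. The design was lineage plus structure, and SEs are the log2 fold change divided by the square root of F. Log2 CPM used a prior count of 2. The test was run on simulated counts with known changes before use. Nothing in the labels ties samples of different groups to one animal. The p-values and SEs of the main fit measure the spread around the additive model. That spread holds differences between samples, which may be partly technical, and any difference between the lineages in the size of the change. Deviations of same-numbered samples from their group means correlated weakly (r from -0.036 to 0.077 over 15 pairs). Same-numbered luminal duct and luminal TEB samples had r of 0.038, 0.077 and 0.059, and differently numbered ones -0.055 to -0.003. Low values cannot exclude that same-numbered samples shared a pool of mice. The numbers were not used as pairs in the main fit. A replicate block, run as an alternative, left 532 TEB-higher and 551 duct-higher peaks.

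Peaks were placed against 41421 TSSs of protein-coding transcripts in GENCODE vM21 on GRCm38. Soft-masked bases were read from the RefSeq genome of that build. Peaks over the naming thresholds were the 8 per direction at TSSs, and the 8 per direction over 2.5 kb away and at most 50% soft-masked, with the largest smaller-of-both within-lineage difference, among members whose TEB and duct libraries did not overlap and whose level was above the median. Up to 3 genes per list, the 13 genes named by the study and the 6 loci per direction with most members were named too. Members, the 36 gene lists (647 of 648 genes matched) and the 24 motifs were chosen with earlier results of these data known. Alternatives were other scalings, no filter, a replicate block, a model of group means, exact tests within lineages, thinning to 1821942 counts, exclusion of soft-masked peaks, DESeq2 1.42.0 and omission of each library.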

Additional observations from a re-analysis of the deposited data

Results flagged for a closer look

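Of 38 named peaks tested for the interaction of lineage and structure, 3 had a TEB minus duct difference that was not the same in both lineages. Among the 26 named members it was 1. Interactions were called in 14.0% of all tested peaks, 27.7% of TEB-higher and 30.3% of duct-higher members. Promoter and distal peaks were named by the smaller of the 2 within-lineage differences, so a low count at them follows in part from that rule. At the Nrxn3 promoter the interaction was 1.29 ± 0.29 (log2, SE, edgeR adjusted p = 0.00204), with differences of 1.75 in basal and 0.53 in luminal cells. At the Dmrta1 promoter it was 1.53 ± 0.49 (edgeR adjusted p = 0.0274), with 1.45 in basal and 0.01 in luminal cells. At the promoter of Lgr5, which encodes a receptor for R-spondins, it was -1.87 ± 0.37 (edgeR adjusted p = 0.000545), with -1.71 in basal and 0.21 in luminal cells. Lgr5 had 8.24, 16.5 and 7.96 CPM in basal TEB and 39.4 and 30.8 in basal duct, against 9.98, 10.5 and 9.64 in luminal TEB and 10.5, 7.64 and 7.98 in luminal duct, so the difference between structures was seen in basal cells. Dmrta1 and Lgr5 were not shared peaks.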

How the results depend on the processing

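Counts of shared peaks depended on the model and on the libraries, and TSS peaks made up over 50% of duct-higher peaks in all fits listed here except those with loess and GC-bin offsets. TEB-higher and duct-higher counts were 5524 and 339 with TSS-peak factors, 1508 and 516 with loess offsets, 1921 and 1336 with GC-bin offsets, 532 and 551 with the replicate block, 11853 and 9638 with a model of group means, 115 and 187 with exact tests in both lineages, 1515 and 473 after thinning, 1439 and 1409 without soft-masked peaks and 4917 and 2688 with DESeq2. TSS shares (%) of the same sets were 2.77 and 59.9, 5.90 and 30.0, 2.19 and 32.5, 2.82 and 76.0, 1.22 and 53.8, 1.74 and 71.7, 2.44 and 60.5, 1.74 and 65.5, and 1.22 and 66.9. Interactions among members numbered 532 (loess), 903 (GC-bin), 372 (replicate block), 5631 (group means), 337 (thinned) and 627 (without soft-masked peaks) against 1455, and lineage calls 1305 (loess), 440 (replicate block), 11370 (group means), 127 (exact), 1241 (thinned) and 3476 (DESeq2) against 2229. The cause was not tested.

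With 1 library left out, counts ranged from 55 to 4031 TEB-higher and 48 to 3768 duct-higher, TSS shares from 0.00% to 1.86% and from 51.6% to 70.9%, interactions from 18 to 1504 and lineage calls from 50 to 2758. The lowest counts were those without basal duct replicate 1 (55 and 48) or 3 (56 and 78). Chosen after seeing the data, 910 and 246 peaks were members under all 5 scalings and 40 and 44 in every fit with a library left out. Whether the replicate numbers pair the samples is not known. Among named peaks the replicate block took the Htr5b log2 fold change to 0.74 (edgeR adjusted p = 0.125).

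Signs reversed only at genes that were not called. Nrg1 was 0.024 (TSS-peak factors), 0.028 (loess) and 0.032 (GC-bin). Col16a1 was 0.21, 0.18 and 0.23 in these 3, 0.13 after thinning and from -0.32 to 0.034 with a library left out, the latter without basal duct replicate 1. Myh11 was 0.041 with TSS-peak factors and 0.19 after thinning, and Mylk 0.24 with group means and 0.19 with exact tests. Basal TEB libraries, with as few as 1821942 counts, limit precision at low peaks.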

Other observations

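On the X chromosome lay 5.71% of TEB-higher and 1.44% of duct-higher shared peaks, against 2.43% of all tested peaks. Soft-masked peaks made up 131 of the 153 TEB-higher peaks on X. The X share was 8.98% in soft-masked TEB-higher members, against 7.29% of all tested soft-masked peaks. It was 1.83% in TEB-higher members outside the TSS and soft-masked classes. Intergenic peaks made up 52.0% of TEB-higher and 15.9% of duct-higher members, against 35.2% of all tested peaks. Their share was 63.4% in soft-masked TEB-higher members, against 61.2% of all tested soft-masked peaks. In TEB-higher members outside the TSS and soft-masked classes it was 38.6%. Summed promoter accessibility of 4 endothelial markers was 35.8 to 53.3 CPM in basal TEB, 59.4 to 62.1 in basal duct, 19.7 to 23.8 in luminal TEB and 18.5 to 20.2 in luminal duct.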
